A study of Mus musculus with 17 samples.

Results

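The genes described here were 10 isoforms that distinguish fast from slow skeletal muscle fibers, 6 of fast fibers (Myh1, Myh2, Myh4, Tnnc2, Tnni2 and Tnnt3) and 4 of slow fibers (Myh7, Tnnc1, Tnni1 and Tnnt1), out of 18193 genes measured. They were measured in 17 neuroblastomas, 1 Affymetrix mouse genome array per tumor, from mice hemizygous for TH-MYCN, a transgene in which the rat tyrosine hydroxylase promoter drives MYCN in cells of the sympathetic lineage. The mice were kept on a single inbred background, the tumors were primary, full-grown abdominal masses, and the study gives an age range of some weeks for the whole set, with no age per tumor. All 17 tumors formed a single group, with no normal tissue or other group beside them, so no comparison between conditions was possible. The isoforms were chosen by name, with signal of skeletal muscle in 3 of these arrays (tumors mad549, mad550 and mad553) already known, and every value below is therefore a description with no test.

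Skeletal muscle fibers contract by sliding of myosin along actin, under control of the calcium-sensing troponin complex. Fast and slow fibers build these parts from different genes: each fiber type has its own myosin heavy chains, which set the speed of shortening, and its own troponin C, which binds calcium, troponin I, which blocks contraction at rest, and troponin T, which anchors the complex to tropomyosin. Tnnc1 is also the troponin C of heart muscle, and slow fibers share further proteins with cardiac muscle.

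The genes of the 3 fast heavy chains lie next to each other on the same strand of chromosome 11. Their promoter sequences are shown because Myh4 and Myh1 carried some of the largest differences between tumors, and the 3 did not vary as 1 unit. Myh2 varied least of the 6 fast isoforms, with an SD of 0.85. The sequences are from RefSeq (mouse build GRCm38.p6), the 250 bases before the annotated start, 5′ to 3′, in Myh2 (chr11:67170777-67171026, plus strand), Myh1 (chr11:67199852-67200101, plus strand), Myh4 (chr11:67237562-67237811, plus strand) and, as a slow gene for comparison, Tnnc1 (chr14:31208062-31208311, plus strand). Capitals mark TATAAA read on the given strand and the consensus of the MEF2 family of muscle transcription factors read on both strands.
Myh2: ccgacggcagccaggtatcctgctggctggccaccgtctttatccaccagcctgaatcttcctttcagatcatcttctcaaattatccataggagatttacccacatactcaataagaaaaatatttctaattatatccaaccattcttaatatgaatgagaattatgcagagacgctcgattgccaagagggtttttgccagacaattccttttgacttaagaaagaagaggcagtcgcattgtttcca
Myh1: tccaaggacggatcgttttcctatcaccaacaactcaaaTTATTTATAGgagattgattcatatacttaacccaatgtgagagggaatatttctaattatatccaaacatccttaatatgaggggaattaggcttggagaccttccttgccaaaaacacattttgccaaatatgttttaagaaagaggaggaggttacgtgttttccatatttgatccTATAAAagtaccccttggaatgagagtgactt
Myh4: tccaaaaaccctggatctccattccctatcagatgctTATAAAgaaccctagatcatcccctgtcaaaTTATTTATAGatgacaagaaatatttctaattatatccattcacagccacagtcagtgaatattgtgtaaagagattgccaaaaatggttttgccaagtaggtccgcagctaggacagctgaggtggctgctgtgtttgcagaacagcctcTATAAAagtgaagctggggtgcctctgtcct
Tnnc1: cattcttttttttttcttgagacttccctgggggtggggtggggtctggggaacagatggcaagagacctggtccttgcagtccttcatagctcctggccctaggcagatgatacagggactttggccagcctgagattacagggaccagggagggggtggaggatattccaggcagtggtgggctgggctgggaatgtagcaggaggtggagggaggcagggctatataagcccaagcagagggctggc
A run of 20 bases, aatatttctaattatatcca, was identical in the 3 fast heavy chain promoters, beginning 165 bases before the start in Myh1, 130 in Myh2 and 163 in Myh4, and no other of 32851 promoters held it. The match to the MEF2 consensus had the same letters, TTATTTATAG, 211 bases before the start of Myh1 and 182 before that of Myh4. Windows of 300 bases, which add the 50 bases after the start, were at hand for 8 of the 10 genes (all but Tnni2 and Tnnt3). In these, the MEF2 consensus was matched in Myh1 and Myh4 and in none of the 4 slow genes, against 3.19% of all promoters. TATAAA was found in Myh1, Myh2 (just after the start, so not in the bases shown), Myh4 and Tnnt1, against 8.32% of all promoters, and CANNTG, the letters of an E-box, in Myh4, Tnnc2 and all 4 slow genes, against 72.3%. A CArG box, the site type of serum response factor, was matched in Myh4 only (1.63% of all promoters), and CATTCC on either strand in Myh1, Myh4, Myh7 and Tnnc1 (14.7%). These matches are letters in a window and were not tested as binding sites.

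The fast myosin heavy chains were high in the same few tumors but in different proportions. Myh4, the heavy chain of the fastest fibers (type IIB), ranged from 6.13 over a median of 6.95 to 14.76 on the log2 scale, with 14.76 in mad553, 13.20 in mad550, 12.92 in mad549 and no more than 7.86 in the other 14 tumors. Its value in mad553 was 225-fold its own median, and the 3 high tumors stood clear of the rest. Myh1, the heavy chain of type IIX fibers, ranged from 5.42 over a median of 8.08 to 12.64, with 12.64 in mad553, 12.53 in mad550 and 9.98 in mad549. The other 14 tumors spread from 5.42 (mad554) to 9.84 (mad559), so mad549 lay just above the next tumor. Myh2, the heavy chain of type IIA fibers, ranged from 3.96 over a median of 4.28 to 7.20, with 5.83 in mad553, 7.20 in mad550 and 4.80 in mad549. It was the only fast isoform of the 6 that was highest in mad550, and mad549 lay below the 5.73 of mad559. In 14 of the 17 tumors the Myh2 probe set lay within the lowest 25% of its array, where values carry little information about level.

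The fast troponins had the same 3 tumors on top, in the same order. Tnnc2, fast troponin C, ranged from 4.92 over a median of 5.90 to 13.20, with 13.20 in mad553, 11.68 in mad550, 11.13 in mad549 and at most 6.52 in the others. Tnnt3, fast troponin T, ranged from 4.08 over a median of 4.57 to 11.89, with 11.89 in mad553, 9.36 in mad550, 9.33 in mad549 and at most 5.35 in the others. Tnni2, fast troponin I, ranged from 4.87 over a median of 5.26 to 9.61, with 9.61 in mad553, 7.66 in mad550, 7.34 in mad549 and at most 5.47 in the others. The Tnnt3 probe set lay within the lowest 25% of its array in 11 tumors. In none of these genes did the 3 tumors overlap the other 14. In RNA of a whole tumor piece, more cells of a type and more RNA per cell cannot be told apart.

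The slow isoforms varied little, and did not follow the fast ones. Myh7, the slow and ventricular heavy chain, ranged from 6.48 over a median of 6.78 to 7.12 (mad560), with 6.75 in mad553, 6.61 in mad550 and 6.96 in mad549, all inside the range of the other 14 tumors. Tnnc1, the slow and cardiac troponin C, ranged from 6.38 (mad562) over a median of 7.36 to 8.06, with 7.37 in mad553, 8.06 in mad550 and 7.29 in mad549. Only mad550 lay outside the other tumors, which reached 7.53. Tnni1, slow troponin I, ranged from 5.99 over a median of 6.59 to 7.58 (mad561), with 6.38 in mad553, 7.42 in mad550 and 6.16 in mad549. Its upper end was shared by mad561, mad560 (7.45), mad550 and mad554 (7.15), so 3 of its 4 highest tumors were low for the fast isoforms. Tnnt1, slow troponin T, ranged from 4.76 over a median of 5.15 to 5.80 (mad559), with 4.84 in mad553, 5.59 in mad550 and 5.23 in mad549, all 3 inside the range of the others.

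**Figure D1:**
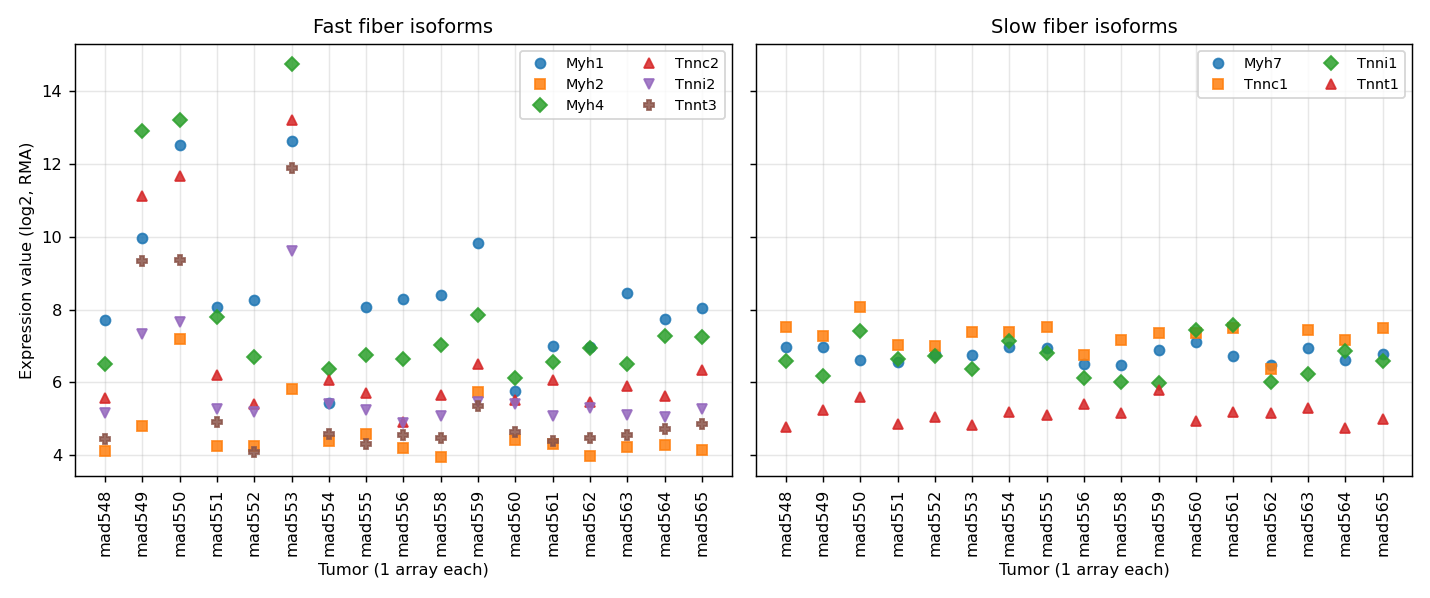
Expression value (log2, RMA) of each isoform in each of the 17 tumors, 1 point per gene and tumor, fast isoforms on the left and slow isoforms on the right. The fast isoforms stood out in mad549, mad550 and mad553, up to 14.76 for Myh4, while the slow isoforms stayed between 4.76 and 8.06 in all tumors.

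The probe sets of different genes differ in brightness, so genes were set side by side by their excess, the log2 value in a tumor minus the gene's own median over the 17 tumors. In mad553, 6 of 6 fast and 0 of 4 slow isoforms had an excess of at least 1, as did 1.28% of all genes. The same count was 6 of 6 and 0 of 4 in mad550 (1.31% of all genes) and 5 of 6 and 0 of 4 in mad549 (0.374%), with Myh2 short of it at 0.53. Isoforms above all of the other 14 tumors numbered 6 fast and 0 slow in mad553 (3.59% of all genes), 6 fast and 1 slow (Tnnc1) in mad550 (2.86%), and 5 fast and 0 slow in mad549 (7.64%). The tumor mad553 was the highest of all for 5 fast and 0 slow isoforms (3.33% of all genes), and the 3 highest tumors were mad553, mad550 and mad549 for the same 5 (0.385%). The SD over tumors was at least 1 for 5 fast isoforms, from 1.27 for Tnni2 to 2.71 for Myh4, and for none of the slow ones, from 0.20 for Myh7 to 0.53 for Tnni1, against 1.05% of all genes. The choice of the isoforms used these tumors, and nothing is read from the distance of these counts to the background.

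The fast isoforms had a median excess of 5.93 in mad553, of 4.62 in mad550 and of 3.42 in mad549. The slow isoforms had one of -0.12, 0.57 and 0.00, and all 18193 genes one of -0.05, -0.02 and 0.04. The difference between the fast and the slow median was thus 6.05, 4.05 and 3.42, and in the other 14 tumors it lay between -0.33 and 0.79. In mad553, the tumor of the largest fast excess, 3 of the 4 slow isoforms were at or below their medians, with Myh7 at -0.04, Tnni1 at -0.21 and Tnnt1 at -0.32, and Tnnc1 at 0.01. In mad550 the excess was 0.70 for Tnnc1, 0.84 for Tnni1 and 0.44 for Tnnt1, and -0.17 for Myh7. In mad550, 3 of 4 slow and 1 of 6 fast isoforms were higher than in mad553, as were 56.8% of all genes.

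**Figure D2:**
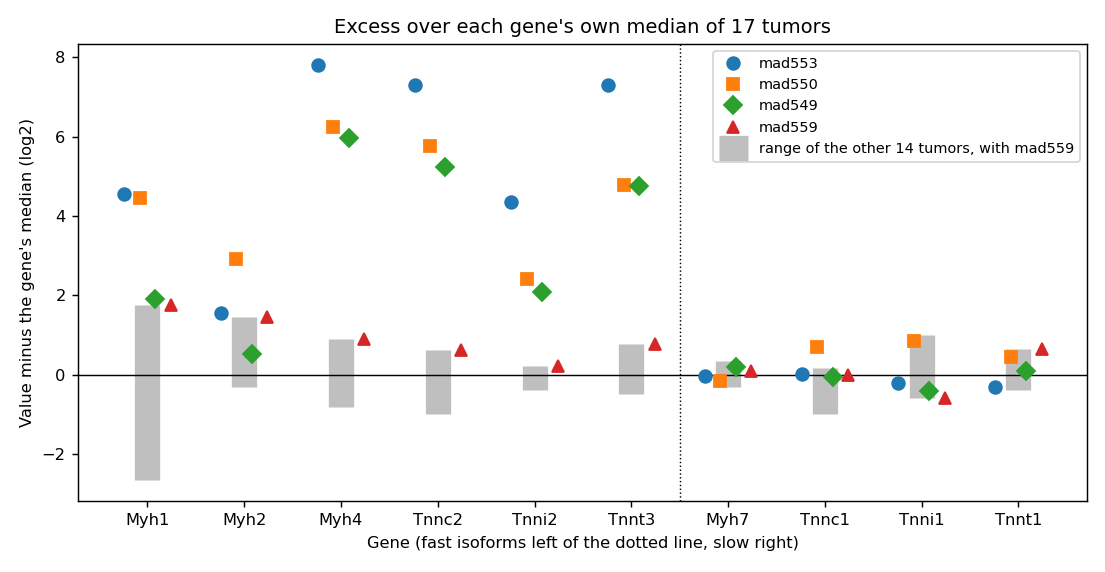
Excess over each gene's own median (log2) in mad553, mad550, mad549 and mad559, with the grey bar giving the range of the 14 tumors other than mad553, mad550 and mad549. The fast isoforms reached 7.81 (Myh4 in mad553), while the slow isoforms stayed within 0.84 of their medians in these 3 tumors.

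The fast isoforms did not keep 1 proportion among the 3 tumors. Between mad553 and mad550, Myh1 differed by 0.11 and Myh2 by -1.37, while Myh4 differed by 1.56, Tnnc2 by 1.53, Tnni2 by 1.96 and Tnnt3 by 2.52. Between mad550 and mad549 the order turned: Myh1 differed by 2.56 and Myh2 by 2.40, but Myh4 by 0.28, Tnnc2 by 0.55, Tnni2 by 0.32 and Tnnt3 by 0.03. With the probe sets used, Myh1 and Myh2 thus stood apart from Myh4 and the fast troponins in the steps on both sides of mad550. The Myh2 value in mad549, 4.80, lay within the lowest 25% of its array. Some other fiber genes also fell far from mad550 to mad549, Des from 9.69 to 7.83 and Myl1 from 9.18 to 7.58. Ckm moved only from 11.24 to 11.07. With another probe set of Tnni2, its step from mad550 to mad549 was 1.85 in place of 0.32, which is closer to those of Myh1 and Myh2.

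The same was seen on the unlogged scale, where the increment of a gene over its median was taken as a percent of its increment in mad553, a ratio within 1 probe set. In mad550 this was 92.5% for Myh1 and 341% for Myh2, against 33.6% for Myh4, 34.3% for Tnnc2, 22.0% for Tnni2 and 16.9% for Tnnt3. In mad549 it was 12.04% for Myh1 and 22.8% for Myh2, 27.6% for Myh4, 23.3% for Tnnc2, 16.6% for Tnni2 and 16.5% for Tnnt3. The 10 other fast fiber genes lay between 14.6% and 38.7% in mad550, and the 12 genes shared by all fibers between 12.7% and 58.8%, so both Myh1 and Myh2 exceeded every one of these 22 genes there. In mad549 the ranges were 5.91% to 23.8% and 0.823% to 42.9%, and Myh1 and Myh2 lay inside both. The percents of Myh2 rest on a small increment in mad553 and are the least certain. No increment was computed for slow isoforms, since none had an excess of at least 1 in mad553. Of the 10 other slow fiber genes, 2 had an increment. Mb (myoglobin) stood at 161% in mad550, above Myh1, and at -2.71% in mad549. Mybpc1 stood at 28.2% and 3.07%.

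**Figure D3:**
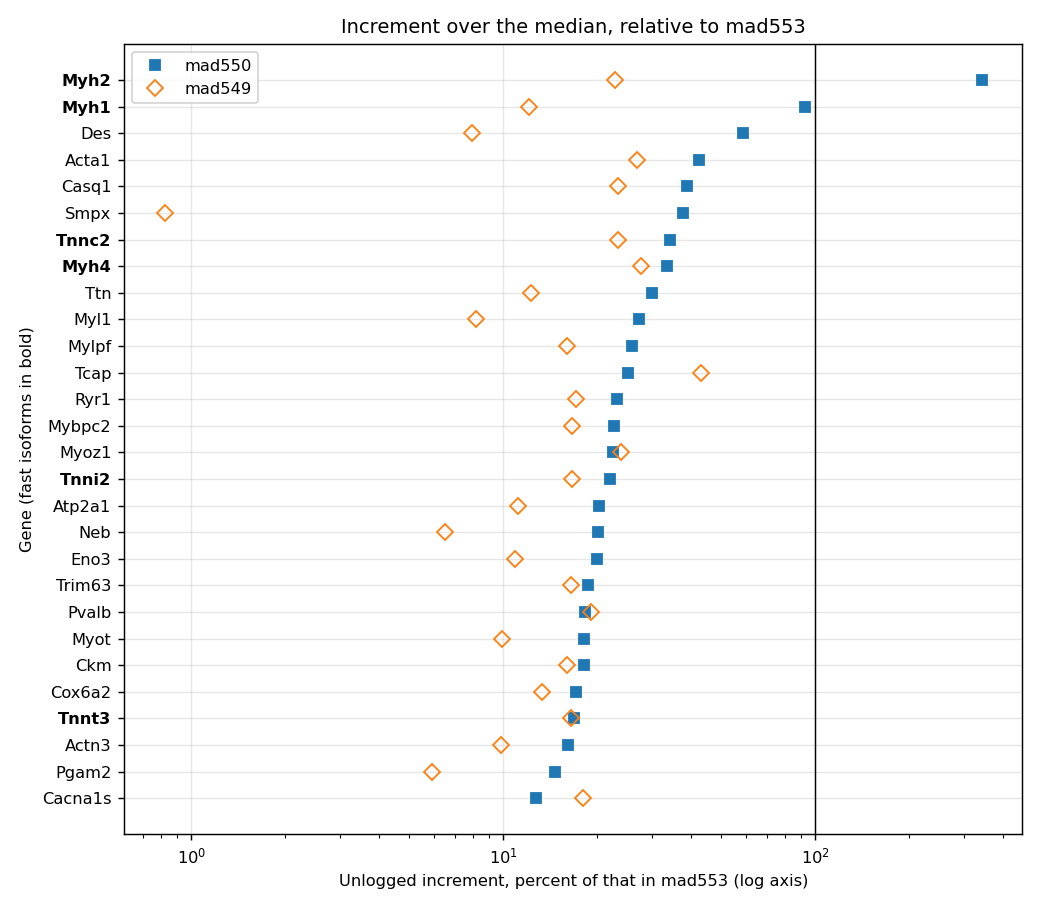
Unlogged increment over the gene's median in mad550 (squares) and mad549 (open diamonds), as percent of that in mad553 (log axis), for the 6 fast isoforms (bold) and the 22 other fast and shared fiber genes. In mad550 Myh2 (341%) and Myh1 (92.5%) lay to the right of the other genes, the next being Des at 58.8%.

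Among the remaining tumors, mad559 had a smaller excess with another make-up. It was the highest of the 14 tumors outside mad553, mad550 and mad549 for 6 of 6 fast isoforms and for 1 slow isoform (Tnnt1), against 4.03% of all genes. An excess of at least 1 was reached by 2 fast isoforms, Myh1 at 1.76 and Myh2 at 1.45 (0.495% of all genes), while Myh4 stood at 0.91, Tnnt3 at 0.78, Tnnc2 at 0.61 and Tnni2 at 0.22. Relative to mad553 the increment in mad559 was 89.4% for Myh2 and 10.5% for Myh1, and below 1% for the 4 others, the highest being Tnni2 at 0.830%. The 10 other fast fiber genes did not share this excess: 0 reached 1 in mad559, and their median was -0.01. Only 3 of these 10 were highest of the 14 tumors in mad559. Among the shared fiber genes, Acta1 (skeletal actin) at 1.36 and Ttn (titin) at 1.35 reached an excess of 1 in mad559. Ckm (muscle creatine kinase) stood at 0.05 and Neb (nebulin) at 0.02. Myh3, the embryonic heavy chain, had its highest value of all 17 tumors there, 10.95 against a median of 9.48.

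Among the 14 tumors outside mad553, mad550 and mad549, Myh1 varied more than the other fast isoforms. Over the 14 tumors its SD was 1.13, against 0.52 for Myh4, 0.43 for Myh2 and Tnnc2, 0.30 for Tnnt3 and 0.16 for Tnni2. It was low in mad554 (5.42) and mad560 (5.77), and between 6.97 and 9.84 in the 12 others. Across the 14 tumors the Pearson r of Myh1 was 0.65 with Myh4, 0.40 with Myh2 and 0.33 with Tnnt3. It was 0.17 with Tnnc2 and -0.24 with Tnni2. By ranks (Spearman) the value was 0.49 with Myh4, -0.09 with Myh2 and 0.14 with Tnnc2. With the slow isoforms the Pearson r ran from -0.69 for Tnni1 to 0.42 for Tnnt1. With Myh3, the embryonic heavy chain, it was 0.55. Outside the isoforms, among genes with an SD of at least 0.5, it was highest for Il23a (0.79), Fign (0.75) and Sncaip (0.74).

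All other fast fiber genes listed were high in the same 3 tumors, while the other slow fiber genes were mixed. All 10 other fast fiber genes had an excess of at least 1 in mad553, mad550 and mad549, with medians of 6.22, 4.11 and 3.23. Among them were Mybpc2, the fast myosin-binding protein C (7.41, 5.30 and 4.85), Atp2a1, the calcium pump of fast fibers (7.41, 5.13 and 4.31), Eno3, the muscle enolase (4.08, 2.06 and 1.45), and Myoz1, a Z-disc protein (2.62, 1.11 and 1.15). Of the 10 other slow fiber genes, 2 had such an excess in mad553, 2 in mad550 and 0 in mad549, with medians of 0.04, 0.26 and -0.01. These were Mybpc1, the slow myosin-binding protein C, at 3.50, 1.97 and 0.40, and Mb, the oxygen-binding myoglobin of oxidative fibers, at 1.90, 2.43 and -0.11. Neither protein is made by slow fibers alone. Above all of the other 14 tumors lay 3 of the 10 slow fiber genes in mad553, 5 in mad550 and 2 in mad549. The shares of all genes were 3.59%, 2.86% and 7.64%. The 5 in mad550 were Mb, Mybpc1, Myoz2, Casq2 and Myh7b. Myoz2, a Z-disc protein of slow fibers, had an excess of 0.92 there, and Casq2, the slow and cardiac calsequestrin, one of 0.84. That of Myh7b, a heavy chain related to Myh7, was 0.35. Other slow genes varied little over the 17 tumors. The slow light chains were at 4.04 to 4.49 (Myl2) and 6.77 to 7.36 (Myl3), and the tropomyosin Tpm3 at 11.96 to 12.50. Myl2 lay within the lowest 25% of every array, where values carry little information about level. Of the 12 shared fiber genes, 12, 10 and 8 had an excess of at least 1 in the 3 tumors, with medians of 4.39, 2.71 and 2.12. Smpx, a small cytoskeletal muscle protein, stood at 4.07 in mad553, 2.79 in mad550 and 0.18 in mad549, and Des, the intermediate filament desmin, at 3.28, 2.62 and 0.76. The least variable of the shared genes were Cacna1s, a calcium channel subunit (2.17, 0.53 and 0.70), and Cox6a2, a mitochondrial subunit of muscle (2.14, 0.66 and 0.54).

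Genes of developing or regenerating muscle were mixed. Of 10 such genes, 1 had an excess of at least 1 in mad553, 3 in mad550 and 0 in mad549. Of all genes, 1.28%, 1.31% and 0.374% did. Above all of the other 14 tumors lay 5, 6 and 2 of the 10, against 3.59%, 2.86% and 7.64% of all genes. Myog, the transcription factor of differentiating myoblasts, was 7.50 in mad550, 5.17 in mad553 and 4.96 in mad549, and at most 5.06 in the other 14 tumors. Myh8, the perinatal heavy chain, was 6.07 in mad550, 4.45 in mad553 and 4.79 in mad549, and at most 4.34 in the others. Myf6, a factor of mature fibers, was instead highest in mad553 at 8.23, with 5.90 in mad550 and 5.38 in mad549. In mad550 the excess of Myh3 was -0.15 and that of Myl4, the embryonic light chain, was -0.01. Myog was also set as a marker of muscle progenitors, together with Myod1, Pax7 and Myf5. Myod1 was 6.27 in mad550, 6.01 in mad553 and 5.75 in mad549, and at most 5.99 in the other 14 tumors. Pax7 (4.20 to 4.95) and Myf5 (3.68 to 4.07) were flat in all 17 tumors. Tnnt2, the cardiac troponin T that embryonic skeletal muscle also makes, was 7.26 in mad550, against 4.70 in mad553, 4.72 in mad549 and at most 5.54 in the others. It was the only 1 of 9 cardiac genes with an excess of at least 1 in any of the 3 tumors. Most defining heart genes varied little, with Myh6 at 4.11 to 4.65, Tnni3 at 4.47 to 5.10, Nppa at 4.48 to 5.14 and Mybpc3 at 4.95 to 5.40. Myl7, also set as a heart marker, was 5.49 in mad553, against at most 5.36 in the other 14 tumors. Myh6 was below the 25% limit of every array, and Nppa had a mean of 4.69.

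**Figure D4:**
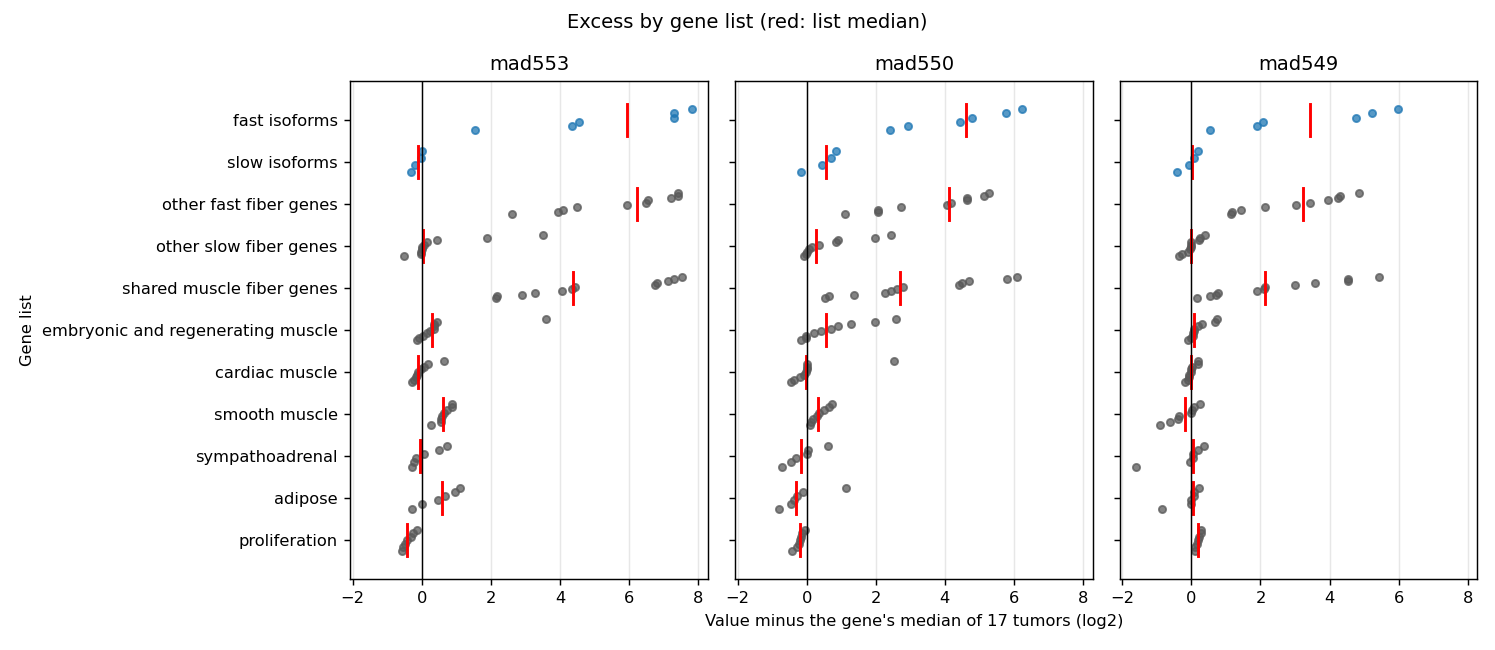
Excess over the gene's own median (log2) for each gene of 11 lists in mad553, mad550 and mad549, with red bars at list medians and the isoforms in blue. Fast isoforms, other fast genes and shared fiber genes had medians of 2.12 or more in each tumor, while every slow gene other than Mybpc1 and Mb stayed below 1.

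Markers of other tissues differed less. None of 8 smooth muscle genes had an excess of at least 1 in the 3 tumors, but in mad553 their median excess was 0.61. The mean of the smooth muscle list was 8.28 in mad553, above the 6.81 to 8.10 of the other 14 tumors, and 8.02 in mad550 and 7.40 in mad549, inside that range. Above all of the other 14 tumors in mad553 lay 3 of the 8, against 3.59% of all genes. These were Myh11 (7.88), the smooth muscle heavy chain, Tagln (10.48), transgelin, and Lmod1 (7.27), leiomodin. Of 6 fat cell genes, Adipoq stood at 1.10 in mad553 and Pparg at 1.14 in mad550, while the mean of the list (7.85, 7.22 and 7.28) lay inside the 6.12 to 9.64 of the other tumors. Sympathoadrenal markers were high in every tumor, with Chgb at 14.10 to 14.75 and Hand2 at 12.26 to 13.05, and Th, tyrosine hydroxylase, was lowest in mad549 at 11.54 against 11.73 to 14.33 in the other 14. In mad553, 7 of 7 proliferation genes lay below all of the other 14 tumors, as did 13.6% of all genes, with Top2a at 12.70 against at least 12.81 and Mki67 at 13.58 against at least 13.59. The count was 3 of 7 in mad550 (6.35%) and 0 of 7 in mad549 (2.68%). The part of these differences in the muscle values was not tested.

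The genes most like the mean of the 6 fast isoforms were other fiber genes. Among 1229 genes with an SD of at least 0.5, the 10 with the highest Pearson r over the 17 tumors were Acta1 (0.99), Ttn, Mybpc2, Mylpf, Myl1, Myot, Ckm, Atp2a1, Myom2 and Hjv (0.98). These r rest on 3 tumors: over the other 14 tumors they ranged from 0.25 for Atp2a1 to 0.85 for Acta1. The mean of the 4 slow isoforms had no close partner, its highest r being 0.62 for Ppbp, a platelet chemokine, and 0.61 for Dlx5, a homeobox factor, followed by Gpnmb, Gria2, Magel2, Tnnt2, Klhl40, Cxcl2, Slc24a2 and Dlx6 (0.51). Taken singly, Myh7 was most like Nlrp4c (0.79), Dlx5 and Bmpr1b, Tnnc1 was most like Cavin4 (0.68), Ppbp and Klhl40, and Tnnt1 was most like Tex14 (0.65), Sox1 and Paqr9. Tnni1 was most like Slc2a13 (0.78), Mmp12 (0.75) and Egln3 (0.75), and these r were 0.89, 0.94 and 0.91 over the 14 tumors. All points share 1 array per tumor, and the highest of many r is high by selection.

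Between the isoforms themselves, r over the 17 tumors ran from 0.72 to 0.99 for the 15 pairs of fast genes, with a median of 0.83, and the median was 0.51 over the 14 tumors. For the 24 pairs of a fast and a slow gene it ran from -0.23 to 0.59, with a median of 0.06. For the 6 pairs of slow genes it ran from -0.18 to 0.53, with a median of 0.22, and a median of 0.23 over the 14 tumors. Over those 14, Myh7 and Tnnc1 had an r of 0.71, Myh7 and Tnni1 one of 0.48 and Tnnc1 and Tnni1 one of 0.46, while the 3 pairs with Tnnt1 ran from -0.44 to 0.00.

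More than 1 probe set named the gene for 3 of the isoforms, and they disagreed in part. For Myh1, the probe set used and the one of type _a_at had like excesses (4.50, 4.38 and 1.68 for the latter in mad553, mad550 and mad549), while the remaining one was flat at 4.64 to 5.15. For Tnni2, the one used was of type _x_at, another had excesses of 6.57, 4.62 and 2.77, and the remaining one was flat at 3.97 to 4.57. For Myh4, the probe set not used had excesses of 6.30, 2.26 and 2.20, so the step from mad553 to mad550 was larger with it. The heavy chains are closely similar in sequence, and the probe set used for Myh1 (type _x_at) is of a kind that may bind related transcripts. Signal of Myh4, Myh2 or another heavy chain such as Myh3 in it cannot be told apart from Myh1. For Myh7, 2 further probe sets shared with Myh6 were left out, and they were flat at 4.90 to 5.76 and 3.81 to 4.30.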

How the data were processed

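RNA of 17 TH-MYCN tumors was hybridised to 1 array each. The authors deposited log2 expression values made, per the labels, with RMA and Partek 6.4. The methods of the study name MAS5 scaling instead, and the deposited values, from 3.28 to 15.59 with array medians of 6.28 to 6.51, were taken as log2 RMA values. RMA background correction compresses differences of dim probe sets. Of 45101 probe sets, 64 controls, 932 naming several genes and 9160 unnamed were left out. A gene was represented by its probe set with the highest mean among 34945 naming 1 gene, giving 18193 genes. No filter on level was applied. Array pairs correlated at 0.97 to 0.99.

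Groups came from the genotype label, and no test was run. The isoforms, gene lists and tables of comparison were chosen with earlier results of these data known. Named genes were all 10 isoforms, genes among the 2 most and 2 least variable of each list, defining cell type markers, and the genes most like each profile. Smpx, Des, Myl3, Myh8, Myoz2, Casq2, Myh7b and, among the markers, Myog were singled out after their values were seen. The comparison of Myh1 with other genes over the 14 tumors was likewise chosen after values were seen. Likeness used Pearson r among genes with an SD of at least 0.5. Alternatives were other probe set choices, array centring, quantile normalization, other baselines and leaving out tumors or genes. No relative increment could be computed for slow isoforms. Plin1 and Ccnb1 were not analysed here. Promoters came from RefSeq on GRCm38.p6. Python 3.11.15, NumPy 2.4.6, pandas 2.3.3, SciPy 1.17.1 and Matplotlib 3.10.9 were used, and the scripts were tested on simulated data. The number of arrays limits the precision.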

Additional observations from a re-analysis of the deposited data

How the results depend on the processing

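No paired analysis was possible because the arrays form a single group, which leaves nothing to pair. Under 10 other settings of probe set choice, scaling, baseline and left-out tumors or genes, the difference between the fast and slow median excess ranged from 5.40 to 7.42 in mad553, from 3.02 to 4.89 in mad550 and from 2.63 to 4.75 in mad549. With Myh2 left out, mad549 (4.75) exceeded mad550 (4.22). The median relative increment of the fast isoforms ranged from 33.6% to 35.2% in mad550 and from 15.4% to 22.8% in mad549. The count of isoforms highest in mad553, and that with the same 3 highest tumors, were 4 or 5. Without probe sets of types that may bind several transcripts, Myh1 was represented by its flat probe set. The count with an SD of at least 1 was 4 to 5 when each tumor was left out in turn, 4 without mad553, and 1 (Myh1) without mad549, mad550 and mad553. Leaving out each tumor and leaving out these 3 were chosen after seeing the data. With 1 array per tumor, a difference between tumors has no replicate check.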
